A study of Mus musculus with 12 samples.

Results

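The genes that join epithelial cells to each other and to the matrix below them were measured in hepatocellular carcinoma (HCC) and normal liver of the mouse. The set held 38 genes, taken by name from a list that was drawn up with earlier results of these data known: 6 of adherens junctions, 14 of tight junctions, 3 of gap junctions, 5 of desmosomes, 2 of hemidesmosomes and basement membrane anchors, 2 of cell polarity, 4 keratins, and 2 regulators of the epithelial state. They were found through 85 probe sets that named 1 of them, and each was represented by its brightest probe set, among 18193 genes measured in the same way. The first group held 6 HCC that had arisen spontaneously and the second held 6 normal livers. All 12 mice were untreated, 2 years old and of the hybrid strain B6C3F1, and came from a bioassay of the National Toxicology Program. Each was measured on 1 single-colour Affymetrix array. The labels give neither sex nor batch. With 6 livers a group, precision is set by the number of arrays. The samples were pieces of whole tissue, in which fewer cells of a type and less RNA per cell cannot be told apart.

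Values are given as log2(intensity + 16) after quantile normalization, so that 4 is the lowest possible level and a difference of 1 is a doubling of intensity + 16, which understates the change of dim probe sets. Levels of different genes come from different probes and are not set against each other. Differences are HCC minus normal with the standard error (SE) of limma's two-sided test, and a gene was called where its Benjamini-Hochberg adjusted p over all 18193 genes was under 0.05. The ratio of 3' to 5' control probe sets, a measure of RNA integrity given as the mean ± SD of 6 livers, was 0.736 ± 0.0385 in HCC and 0.745 ± 0.0360 in normal liver for Gapdh, and 1.49 ± 0.107 in HCC and 1.64 ± 0.113 in normal liver for beta-actin, and its part in the results was not tested. The mean level of 3 Y-linked genes was 4.85 in HCC 1, 4.23 in HCC 4, 4.60 in normal 1 and 4.17 in normal 3, and lay from 8.96 to 9.77 in the other 8 livers. The values below are also given without HCC 1 and HCC 4 where a call changes, a setting added after seeing the data. It kept normal 1 and normal 3, so it does not match the groups for Y-linked level. With the mean Y-linked level as a covariate in limma, 10 members of the set were called higher and 5 lower.

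In an epithelium, adherens junctions hold neighbouring cells together through cadherins, whose tails bind catenins and through them actin. Tight junctions seal the space between cells with claudins, occludin and tricellulin, which are tied to the cytoskeleton by the zonula occludens scaffold proteins and cingulin. Gap junctions are channels of connexins through which neighbouring cells share small molecules, and desmosomes and hemidesmosomes fasten keratin filaments to the next cell or to the matrix. In the liver the tight junctions close the bile canaliculi off from the blood side of the hepatocyte, and the mouse hepatocyte carries both E-cadherin and N-cadherin. Loss of E-cadherin together with a gain of vimentin is the textbook sign of an epithelial to mesenchymal transition, in which Snail, Zeb and Twist factors bind E-box sequences in promoters of epithelial genes.

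The 250 bases before the transcription start were read from RefSeq (build GRCm38.p6) for 28 of the 38 genes. No entry was at hand for Cdh1, Cdh2, Ctnna1, Pkp2, Pkp3, Dsg2, Dsc2, Itgb4, Esrp1 and Grhl2. The 5 windows shown belong to the neighbouring keratin genes Krt8 and Krt18 and the adhesion molecule F11r, which rose in HCC, and to the connexin gene Gjb2 and the anchor protein gene Lad1, which fell. Each is written 5′ to 3′ on the strand of its gene and ends at the base before the start. Capitals mark the E-box letters CACCTG or their reverse complement CAGGTG.
Krt8, chr15:102004343-102004592, minus strand: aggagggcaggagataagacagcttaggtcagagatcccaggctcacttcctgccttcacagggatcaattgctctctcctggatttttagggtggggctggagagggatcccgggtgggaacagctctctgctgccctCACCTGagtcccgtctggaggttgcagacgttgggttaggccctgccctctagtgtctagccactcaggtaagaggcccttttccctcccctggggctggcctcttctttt
Krt18, chr15:102027966-102028215, plus strand: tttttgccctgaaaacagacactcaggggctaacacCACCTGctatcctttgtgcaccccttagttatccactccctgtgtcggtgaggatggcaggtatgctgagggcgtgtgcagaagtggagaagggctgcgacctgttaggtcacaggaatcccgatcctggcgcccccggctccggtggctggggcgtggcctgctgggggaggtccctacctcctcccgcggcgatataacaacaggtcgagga
F11r, chr1:171437311-171437560, plus strand: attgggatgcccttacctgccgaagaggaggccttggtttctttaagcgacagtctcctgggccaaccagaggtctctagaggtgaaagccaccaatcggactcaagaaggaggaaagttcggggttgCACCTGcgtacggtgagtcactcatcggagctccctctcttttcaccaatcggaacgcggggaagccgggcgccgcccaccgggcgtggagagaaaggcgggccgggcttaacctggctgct
Gjb2, chr14:57104703-57104952, minus strand: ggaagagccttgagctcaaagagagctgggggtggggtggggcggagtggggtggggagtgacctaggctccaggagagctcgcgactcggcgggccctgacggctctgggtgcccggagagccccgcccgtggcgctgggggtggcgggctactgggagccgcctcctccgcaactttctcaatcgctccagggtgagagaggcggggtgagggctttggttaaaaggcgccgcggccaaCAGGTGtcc
Lad1, chr1:135818348-135818597, plus strand: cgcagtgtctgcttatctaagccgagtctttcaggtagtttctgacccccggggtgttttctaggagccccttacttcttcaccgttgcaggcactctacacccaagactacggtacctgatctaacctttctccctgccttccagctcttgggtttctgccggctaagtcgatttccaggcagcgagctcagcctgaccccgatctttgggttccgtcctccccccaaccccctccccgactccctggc

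The E-box began 111 bases before the start of Krt8, 214 before Krt18, 122 before F11r and 9 before Gjb2, and these letters were not in the window of Lad1. Searched on both strands, they stood in 16 of the 43 windows of these genes (37.2%), which belong to 14 of the 28 genes. They stood in 17.2% of all 32851 windows of the same length. G or C made up 57.6% to 69.2% of the windows shown and 40% to 79.2% of the 43, against a median of 52.4% over all windows. The part of this base content in the shares of letters was not tested. Windows of the same gene can overlap, as for Crb3, so that the same letters can count more than once. Among called genes whose windows are not shown, Cldn14 had these letters in 1 window, and Ctnnb1, Cldn12, Tjp1, Marveld2 and Krt20 in none. The letters AACCNGTT, bound by Grainyhead-like factors, were in 0 of the 43 windows and 0.928% of all windows. CTTTGAT or ATCAAAG, bound by the Tcf and Lef partners of beta-catenin, were in 0 of the 43 and 3.21% of all windows. These are matches of letters and say nothing of binding.

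Of the 38 genes, 9 were higher in HCC, 5 were lower and 24 were not called. Over all genes, 6.48% were called higher, 7.24% lower and 13.7% in either direction. The median difference of the 38 genes was 0.33, and that of all 18193 genes was -0.04. Every HCC lay above every normal liver for 7 genes (Cdh1, Ctnnb1, Cldn3, Cldn14, Tjp1, Marveld2 and Krt18), against 4.25% of all genes, and below every normal liver for Lad1 alone, against 4.5% of all genes. The brightest probe set of 31 genes lay above the median probe set of the arrays and that of 7 (Cldn4, Cldn6, Cldn7, Pkp3, Itgb4, Krt20 and Esrp1) below it. Of the 24 genes not called, 16 had a 95% interval of the difference that lay within 1 of 0 on either side, as the plot of differences by junction type shows.

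**Figure D1:**
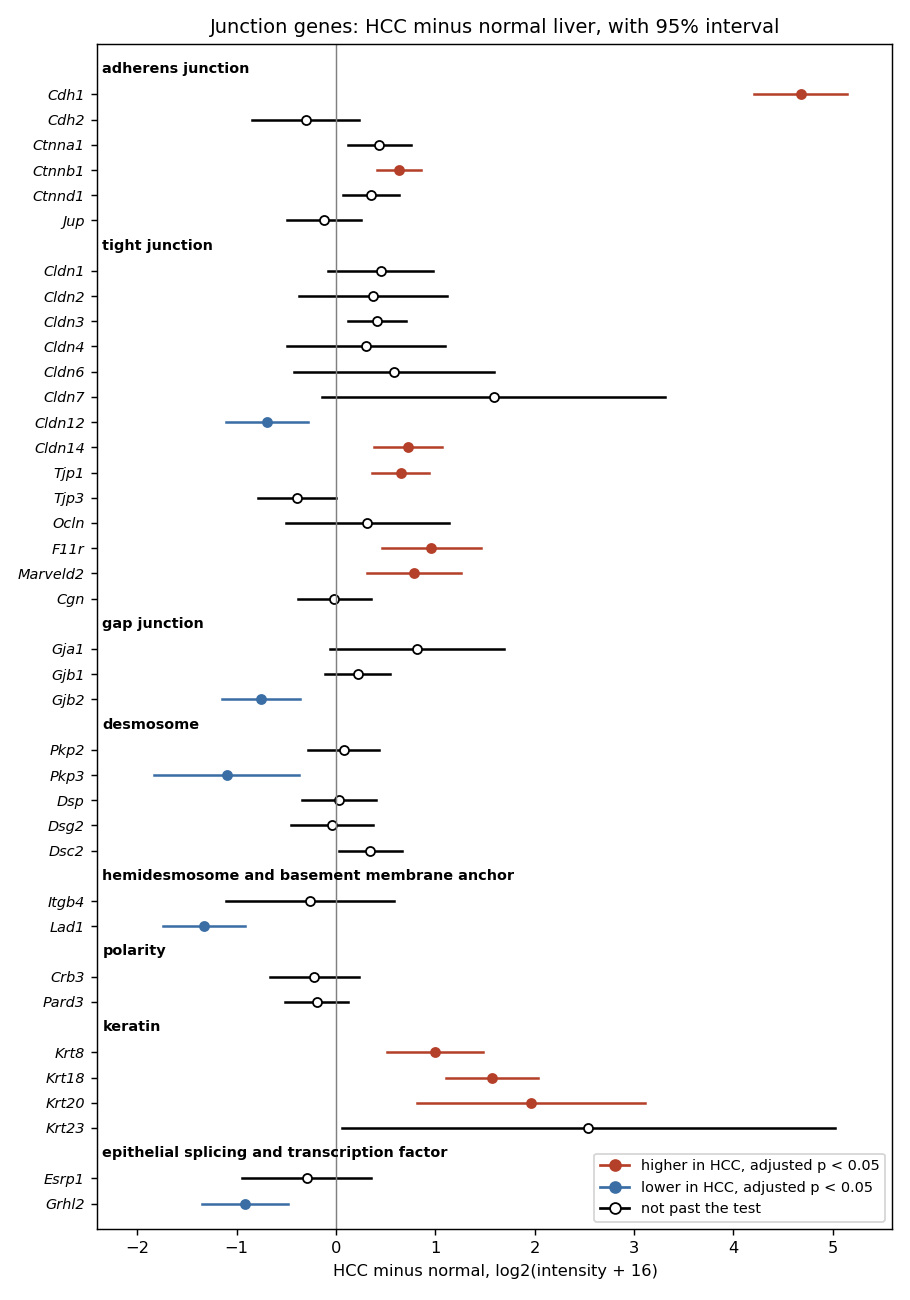
Difference between HCC and normal liver for each of the 38 genes, grouped by junction type, on the scale of log2(intensity + 16). Points are limma estimates from 6 HCC and 6 normal livers and lines are 95% intervals; filled red points were called higher, filled blue points lower, and open black points were not called. Cdh1 stands at 4.68, apart from the other members, and the keratins Krt18 and Krt20 follow among those called higher.

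The adherens junction genes had 2 of 6 members higher and none lower by limma (4 and 0 at an unadjusted p under 0.05), with a median difference of 0.40. Cdh1 encodes E-cadherin, the calcium-dependent adhesion receptor of epithelia. Its log2 level was 12.89 at the lowest, 13.19 at the median and 13.97 at the highest in HCC, against 8.04, 8.68 and 9.04 in normal liver. As deposited, its intensities ran from 7093 to 15770.1 in HCC and from 220.0 to 470.1 in normal liver. Every HCC lay far above every normal liver, with no overlap and with a single probe set behind the values. The difference was 4.68 ± 0.22 (SE, limma adjusted p = 1.55e-07, 95% interval 4.20 to 5.15), a 25.6-fold higher level on this scale. Relative to the mean of the normal livers it was 4.25, 5.04, 4.66, 4.43, 5.32 and 4.36 in HCC 1 to HCC 6, so no HCC lacked the rise.

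Cdh2 encodes N-cadherin, the other classical cadherin of hepatocytes. Its levels were 11.56, 12.23 and 13.35 (lowest, median and highest) in HCC and 12.50, 12.72 and 12.82 in normal liver. The groups overlapped, since 4 HCC lay below all normal livers and HCC 1 above them, and the difference of -0.30 ± 0.25 was not called (SE, limma adjusted p = 0.467). Without HCC 1 and HCC 4 it was -0.65 and called (limma adjusted p = 0.0338). These were the highest HCC for Cdh2, so leaving them out favours this call and lends it no separate weight.

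Of the catenins, Ctnnb1 rose. It encodes beta-catenin, which joins cadherins to the cytoskeleton and is also the transcriptional co-activator of Wnt signalling. Its levels were 14.10, 14.16 and 14.35 in HCC, against 13.47, 13.54 and 13.63 in normal liver, with every HCC above every normal liver. The difference was 0.63 ± 0.10 (SE, limma adjusted p = 0.0019), and its other probe sets gave 0.84 and 0.92 (limma adjusted p = 0.00529 and 0.00425). Ctnna1, alpha-catenin, the link to actin, had levels of 12.58, 13.05 and 13.36 in HCC and 12.51, 12.59 and 12.77 in normal liver. Its difference of 0.44 ± 0.15 lay just outside the threshold (SE, limma adjusted p = 0.0639) and was called without HCC 1 (0.53, limma adjusted p = 0.0215) and without both HCC 1 and HCC 4 (0.56, limma adjusted p = 0.028). A second bright probe set of Ctnna1 gave 0.48 and its dim ones 0.90 and -0.89 (limma adjusted p = 0.0702, 0.316 and 0.0668). Ctnnd1, the catenin that keeps cadherins at the cell surface, had levels of 10.22, 10.49 and 10.65 in HCC and 9.90, 10.07 and 10.38 in normal liver, a difference of 0.35 ± 0.13 (SE, limma adjusted p = 0.0935). Jup, plakoglobin, which serves adherens junctions and desmosomes, spread from 8.75 to 9.86 in HCC and from 9.33 to 9.72 in normal liver, with a difference of -0.12 ± 0.17 (SE, limma adjusted p = 0.706). Of the catenins, then, Ctnnb1 alone separated the groups.

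The tight junction genes had 4 of 14 members higher and 1 lower, with a median difference of 0.43. Among the 8 claudins, 1 rose, 1 fell and 6 were not called. Cldn14, a sealing claudin studied in the inner ear and the kidney, had levels of 9.32, 9.68 and 9.92 in HCC, against 8.52, 8.94 and 9.24 in normal liver. The groups did not overlap, and Cldn14 rose by 0.72 ± 0.16 (SE, limma adjusted p = 0.0105). Cldn12, a claudin linked to calcium passage, had levels of 11.27, 11.51 and 12.38 in HCC, against 12.07, 12.37 and 12.50 in normal liver. It lay below all normal livers in 5 HCC while HCC 2 fell within their range, a difference of -0.70 ± 0.19 (SE, limma adjusted p = 0.0286). This call did not hold without normal 4, 5 or 6 or without HCC 1, 4 or 6 (limma adjusted p up to 0.0629), nor without both HCC 1 and HCC 4 (-0.55, limma adjusted p = 0.112). The other probe set of Cldn12 gave -0.67 and was not called (limma adjusted p = 0.0699).

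Cldn3, a barrier-forming claudin of the liver, had levels of 12.37, 12.58 and 12.96 in HCC and 12.01, 12.26 and 12.31 in normal liver. Every HCC lay above every normal liver, yet the difference of 0.41 ± 0.14 stayed outside the threshold (SE, limma adjusted p = 0.062). It entered it without HCC 1 (0.47, limma adjusted p = 0.0457) and without both HCC 1 and HCC 4 (0.53, limma adjusted p = 0.0348). Cldn3 was also called with a pseudocount of 64, the filter on dim genes, a trended and robust variance or the Y-linked covariate (limma adjusted p up to 0.0465). Its other probe sets gave 0.50, 0.39 and 0.19 (limma adjusted p = 0.0340, 0.0742 and 0.406). Cldn1, the barrier claudin of skin and liver, had levels of 12.06, 12.61 and 13.65 in HCC and 12.10, 12.17 and 12.51 in normal liver, a difference of 0.45 ± 0.24 (SE, limma adjusted p = 0.25). Its 3 highest HCC were HCC 2, HCC 5 and HCC 3, at 13.65, 12.96 and 12.79, each above the highest normal liver.

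Cldn2 forms cation-selective pores and is found around the central vein in the mouse. Its levels were 11.08, 12.26 and 13.70 in HCC and 11.85, 11.98 and 12.18 in normal liver, with HCC on both sides of the normal range. The difference was 0.37 ± 0.34 (SE, limma adjusted p = 0.528), and -0.12 without HCC 1 and HCC 4. Cldn4, Cldn6 and Cldn7 had dim probe sets. Cldn4, of many glandular epithelia, ran from 5.63 to 7.44 in HCC and from 5.10 to 6.91 in normal liver. Cldn6, of embryonic epithelia, ran from 4.88 to 6.83 in HCC and from 4.57 to 6.84 in normal liver. Their differences of 0.30 ± 0.37 and 0.58 ± 0.46 were not called (SE, limma adjusted p = 0.643 and 0.454). Cldn7, found along the sides of epithelial cells, had levels of 4.69, 7.95 and 9.05 in HCC and 4.64, 5.48 and 6.90 in normal liver, a difference of 1.59 ± 0.80 (SE, limma adjusted p = 0.214). HCC 1 and HCC 4 lay in the lower part of the normal range and the other 4 HCC above it. Without those 2 livers the difference was 2.80 and called (limma adjusted p = 0.00662). They were the lowest HCC for Cldn7, so leaving them out favours this call and lends it no separate weight.

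The other tight junction proteins comprised 3 genes that rose and 3 that were not called. Tjp1, the zonula occludens scaffold that ties claudins to actin, had levels of 11.45, 11.87 and 12.03 in HCC, against 11.06, 11.17 and 11.29 in normal liver. The groups did not overlap, and Tjp1 rose by 0.65 ± 0.13 (SE, limma adjusted p = 0.00668). F11r, the junctional adhesion molecule of epithelia and platelets, had levels of 11.38, 12.47 and 12.78 in HCC, against 11.16, 11.38 and 11.45 in normal liver. It rose by 0.96 ± 0.23 (SE, limma adjusted p = 0.0152), above all normal livers in 5 HCC and within their range in HCC 1. Its second, dimmer probe set gave -0.32 (limma adjusted p = 0.474), and the mean of both gave 0.32, which was not called (limma adjusted p = 0.243). Marveld2 encodes tricellulin, which closes the corners where 3 cells meet.

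Marveld2 had levels of 9.001, 9.52 and 10.44 in HCC, against 8.52, 8.81 and 8.98 in normal liver, and every HCC lay above every normal liver. It rose by 0.79 ± 0.22 (SE, limma adjusted p = 0.0316), and the call did not hold without normal 1, 2, 4, 5 or 6 or without HCC 2 or 3 (limma adjusted p up to 0.0685). Ocln, occludin, a regulator of the barrier, spread widely, at 8.73, 9.92 and 11.36 in HCC and 9.24, 9.69 and 9.90 in normal liver, a difference of 0.32 ± 0.38 (SE, limma adjusted p = 0.64). Tjp3, another zonula occludens scaffold, had levels of 8.81, 9.04 and 9.95 in HCC and 9.44, 9.60 and 9.75 in normal liver. It lay below all normal livers in 5 HCC and above them in HCC 2, so that the difference of -0.39 ± 0.18 (SE, limma adjusted p = 0.177) was called once HCC 2 was left out (-0.54, limma adjusted p = 0.0193). Cgn, cingulin, which binds these scaffolds, ran from 8.70 to 9.70 in HCC and from 8.99 to 9.31 in normal liver. Its difference of -0.02 ± 0.17 (SE, limma adjusted p = 0.967) became 0.11 under the deposited scaling and 0.043 under median centring.

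The gap junction genes had 1 of 3 members lower and none higher by limma (1 and 0 at an unadjusted p under 0.05). Gjb2, a connexin of hepatocytes, had levels of 12.67, 13.09 and 13.76 in HCC, against 13.69, 13.92 and 14.10 in normal liver. It lay below all normal livers in 5 HCC, HCC 5 falling in their range, and the difference was -0.75 ± 0.18 (SE, limma adjusted p = 0.0164). Without HCC 1 and HCC 4 the call did not hold (-0.64, limma adjusted p = 0.0704). Gjb1, the main connexin of hepatocytes, had levels of 13.13, 13.59 and 13.81 in HCC and 13.04, 13.37 and 13.54 in normal liver, a difference of 0.22 ± 0.15 (SE, limma adjusted p = 0.385, 95% interval -0.11 to 0.55). Gja1, the connexin of stellate and other non-parenchymal cells, had levels of 8.60, 9.44 and 11.52 in HCC and 8.56, 8.88 and 9.40 in normal liver, a difference of 0.81 ± 0.40 (SE, limma adjusted p = 0.211). Its highest value was that of HCC 6, followed by HCC 4 at 10.38. The summed intensity of 10 stellate and fibroblast markers was also highest in HCC 6, at 90252.5, against 9805 to 22049 in the other HCC and 10376 to 15599.6 in normal liver. Of these 10 markers Col1a1 was called higher and Dcn and Lrat lower, none had an intensity of 0, and their part in the Gja1 values was not tested.

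The desmosome genes had 1 of 5 members lower and none higher by limma (1 each way at an unadjusted p under 0.05), with a median difference of 0.03. Dsp, desmoplakin, which anchors keratin filaments, ran from 11.19 to 12.08 in HCC and from 11.49 to 11.98 in normal liver. Its difference of 0.03 ± 0.17 (SE, limma adjusted p = 0.934, 95% interval -0.34 to 0.40) became -0.017 under the deposited scaling and -0.085 after median centring. The desmosomal cadherin Dsg2 ran from 12.64 to 13.57 in HCC and from 12.60 to 13.36 in normal liver, a difference of -0.04 ± 0.19 (SE, limma adjusted p = 0.924, 95% interval -0.45 to 0.37). The other probe sets of Dsg2 differed, from -0.16 to 0.82, and none was called (limma adjusted p from 0.0633 to 0.709). For both genes the ranges of HCC and normal liver overlapped. Dsc2, its partner cadherin, had levels of 10.15, 10.60 and 10.80 in HCC and 10.00, 10.13 and 10.54 in normal liver, a difference of 0.35 ± 0.15 (SE, limma adjusted p = 0.142). The plakophilins link these cadherins to desmoplakin. Pkp2 ran from 10.76 to 11.52 in HCC and from 10.85 to 11.42 in normal liver, a difference of 0.08 ± 0.16 (SE, limma adjusted p = 0.805).

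Pkp3 had a dim probe set, with levels of 4.90, 6.13 and 6.81 in HCC, against 6.15, 7.25 and 7.78 in normal liver. The groups overlapped, and the difference of -1.10 ± 0.34 lay just inside the threshold (SE, limma adjusted p = 0.0486). The call held without normal 2 and without HCC 6, and not when any of normal 1, 3, 4, 5, 6 or HCC 1, 2, 3, 4, 5 was left out (limma adjusted p up to 0.102), nor without both HCC 1 and HCC 4 (-1.27, limma adjusted p = 0.0645). Its other probe set had the opposite sign (0.41, limma adjusted p = 0.393).

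Lad1, ladinin, an anchoring protein of the basement membrane, had levels of 6.43, 7.04 and 7.40 in HCC, against 7.90, 8.34 and 8.72 in normal liver. Every HCC lay below every normal liver, and the difference for Lad1 was -1.33 ± 0.19 (SE, limma adjusted p = 0.000929). Itgb4, the integrin chain of hemidesmosomes, had a dim probe set that ran from 5.52 to 7.16 in HCC and from 5.66 to 7.67 in normal liver, a difference of -0.26 ± 0.39 (SE, limma adjusted p = 0.714). Neither of the 2 polarity genes was called by limma, nor had an unadjusted p under 0.05. Crb3, which marks the apical side, ran from 8.41 to 9.58 in HCC and from 9.09 to 9.76 in normal liver, a difference of -0.22 ± 0.21 (SE, limma adjusted p = 0.536). Pard3, a scaffold of the polarity complex at forming junctions, ran from 9.26 to 9.69 in HCC and from 9.36 to 9.96 in normal liver, a difference of -0.20 ± 0.14 (SE, limma adjusted p = 0.417).

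**Figure D2:**
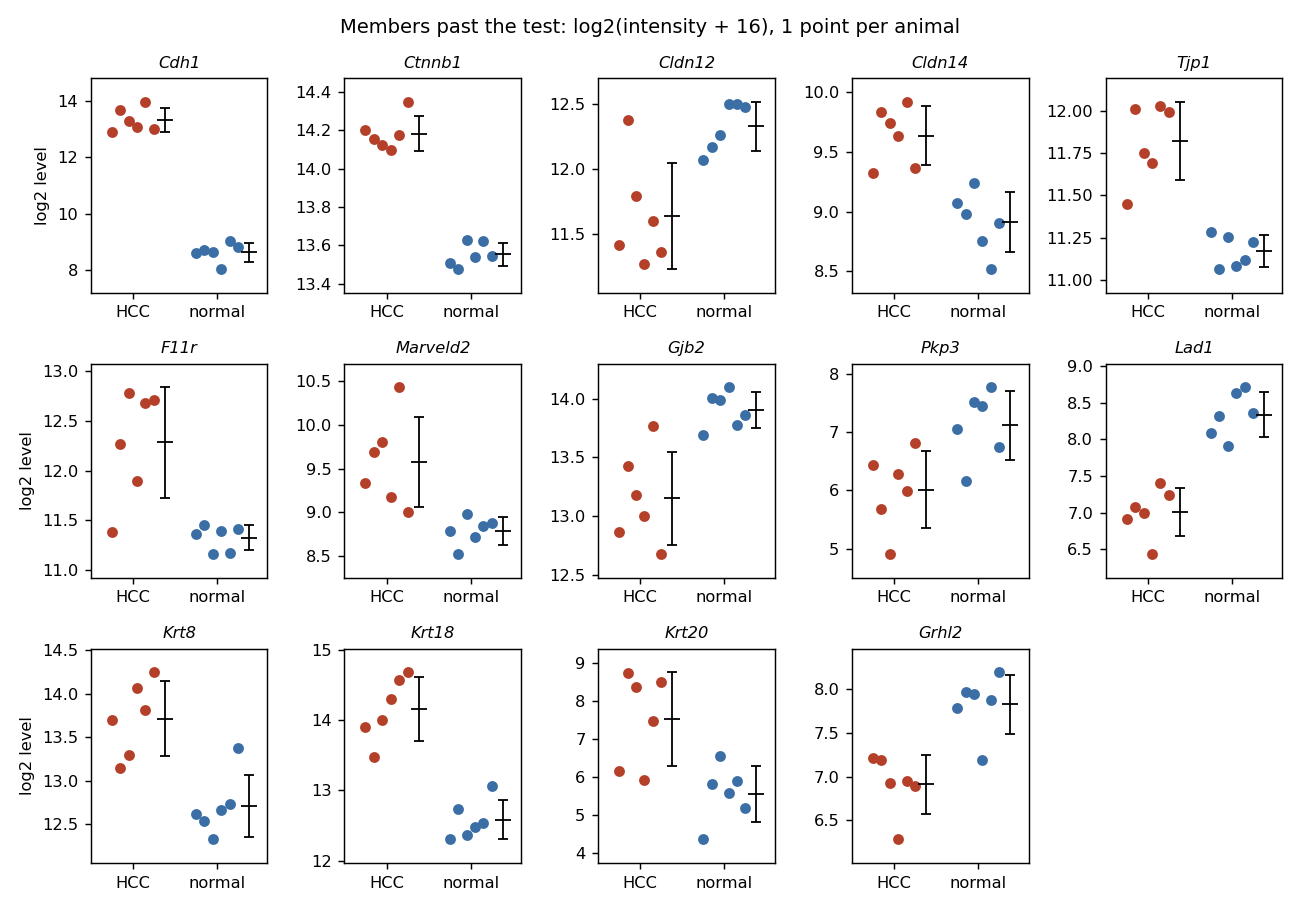
Levels of the 14 genes that were called, as log2(intensity + 16), with 1 point for each of the 6 HCC (red, left) and 6 normal livers (blue, right) and the mean and SD as a bar beside them. The scale differs between panels. Cdh1, Ctnnb1, Cldn14, Tjp1, Marveld2, Krt18 and Lad1 show no overlap between the groups, while single HCC reach the normal range for Cldn12, F11r and Gjb2.

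The keratins had 3 of 4 members higher and none lower by limma (4 and 0 at an unadjusted p under 0.05). Krt8 and Krt18 form the filament pair of the hepatocyte. Krt18 had levels of 13.47, 14.15 and 14.68 in HCC, against 12.31, 12.51 and 13.07 in normal liver. The groups did not overlap, and it rose by 1.57 ± 0.21 (SE, limma adjusted p = 0.000722). Krt8 had levels of 13.14, 13.75 and 14.25 in HCC, against 12.33, 12.64 and 13.38 in normal liver. It rose by 0.999 ± 0.22 (SE, limma adjusted p = 0.0116), with HCC 2 and HCC 3 inside the normal range, and its other probe sets gave 1.14 and 1.09 (limma adjusted p = 0.0129 and 0.0130). Both partners of the pair thus rose, next to each other on chromosome 15.

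Krt20, a keratin of gut and urothelium, had a dim probe set, with levels of 5.93, 7.92 and 8.73 in HCC, against 4.36, 5.69 and 6.54 in normal liver. It rose by 1.96 ± 0.53 (SE, limma adjusted p = 0.0276), and the call did not hold without normal 1, 4 or 6 or without HCC 3 or 6 (limma adjusted p up to 0.0612). HCC 1 and HCC 4 lay within the normal range and the other 4 HCC above it. Krt23, a keratin of simple epithelia, had levels of 4.34, 9.31 and 11.81 in HCC and 4.44, 6.68 and 7.48 in normal liver. For Krt23, 4 HCC lay above the normal range and HCC 4 within it. HCC 1 lay just under the lowest normal liver, both near the lowest possible level of 4. The difference of 2.54 ± 1.15 (SE, limma adjusted p = 0.165) was called without HCC 1 (3.45, limma adjusted p = 0.0261) and without both HCC 1 and HCC 4 (4.09, limma adjusted p = 0.0109). These were the lowest HCC for Krt23, so leaving them out favours these calls and lends them no separate weight.

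Grhl2, a Grainyhead-like factor that activates junction genes such as Cdh1, had levels of 6.28, 6.94 and 7.22 in HCC, against 7.19, 7.91 and 8.19 in normal liver. It lay below all normal livers in 4 HCC, with HCC 1 and HCC 2 at the edge of their range, and the difference was -0.91 ± 0.20 (SE, limma adjusted p = 0.00987). Its sign was thus opposite to that of Cdh1. The mean of its 4 probe sets gave -0.29, which was not called (limma adjusted p = 0.411). Esrp1, a splicing factor of epithelia, had a dim probe set that ran from 4.31 to 5.72 in HCC and from 4.29 to 5.80 in normal liver, a difference of -0.29 ± 0.30 (SE, limma adjusted p = 0.572).

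The HCC varied more among themselves than the normal livers did. The SD of HCC exceeded that of normal liver in 33 of the 38 genes (86.8%), against 64.7% of all genes, and was more than 2 times as large in 17 (44.7%), against 23.5% of all genes. Of the 38 genes, 31 had probe sets above the median probe set. The comparison with all genes was not matched for brightness. Counted liver by liver, HCC 5 stood above all 6 normal livers for 23 of the 38 genes, against 20.8% of all genes, and below them for 7, against 24.3%. The smallest count above was that of HCC 1, with 12 genes above, against 22.2% of all genes, and 8 below, against 24.1%. HCC 2 had 18 above (20.1% of all genes) and 6 below (21.8%), and HCC 3 had 17 above (22.9%) and 12 below (25.6%). HCC 4 had 15 above (21.7%) and 7 below (26.4%), and HCC 6 had 19 above (24.8%) and 10 below (30.0%). Each HCC thus had more of these genes above the normal range than below it, as the map by animal shows.

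**Figure D3:**
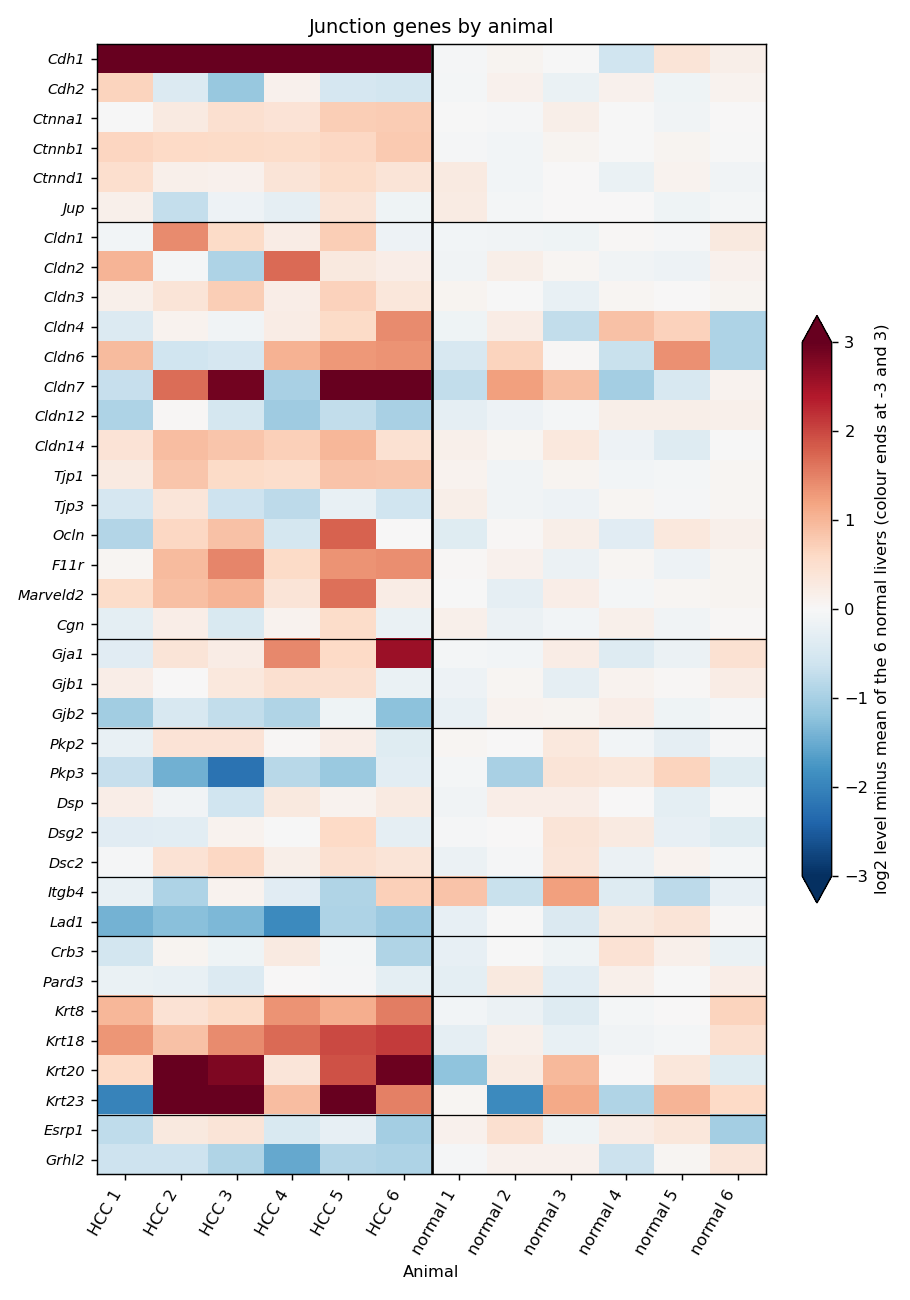
Level of each of the 38 genes in each animal, as log2(intensity + 16) minus the mean of the 6 normal livers, with HCC 1 to 6 on the left of the black line and normal 1 to 6 on the right; red is higher, blue lower, and the colour ends at -3 and 3. The Cdh1 row is red in all 6 HCC, from 4.25 to 5.32, while Cldn7, Krt20 and Krt23 are red in some HCC and pale or blue in others.

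Several of these genes differed among the HCC, and they are set beside glutamine synthetase (Glul) and Axin2, which are induced by beta-catenin signalling. Glul was 15.17, 11.75, 11.40, 15.10, 12.03 and 14.62 in HCC 1 to HCC 6, against 13.29 to 14.33 in normal liver. Axin2 was 11.76, 6.24, 5.06, 10.34, 6.36 and 9.14 in HCC 1 to HCC 6, against 7.65 to 8.76 in normal liver. Both were thus above the normal range in HCC 1, HCC 4 and HCC 6 and below it in HCC 2, HCC 3 and HCC 5.

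Cdh2 was 13.35, 12.28, 11.56, 12.81, 12.18 and 12.14 in HCC 1 to HCC 6, with its highest values in HCC 1 and HCC 4. Cldn2 was 13.02, 11.94, 11.08, 13.70, 12.30 and 12.21, again highest in HCC 1 and HCC 4 and lowest in HCC 3. Ocln ran the other way, at 8.73, 10.22, 10.48, 9.07, 11.36 and 9.62, with HCC 1 and HCC 4 below all normal livers and HCC 2, HCC 3 and HCC 5 above them. Cldn7 was 4.98, 7.33, 8.56, 4.69, 9.05 and 8.92 and Krt20 was 6.15, 8.73, 8.37, 5.93, 7.47 and 8.50, both lowest in HCC 1 and HCC 4. Krt23 was 4.34, 10.75, 11.32, 7.27, 11.81 and 7.88, highest in HCC 2, HCC 3 and HCC 5. HCC 6, with Glul and Axin2 above the normal range, was near HCC 2, HCC 3 and HCC 5 for Cldn7 and Krt20. HCC 1 and HCC 4 are also the HCC without Y-linked signal, so among 6 tumours the state of Glul and Axin2 and that of the Y-linked genes cannot be told apart for them. No test was made within the HCC.

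**Figure D4:**
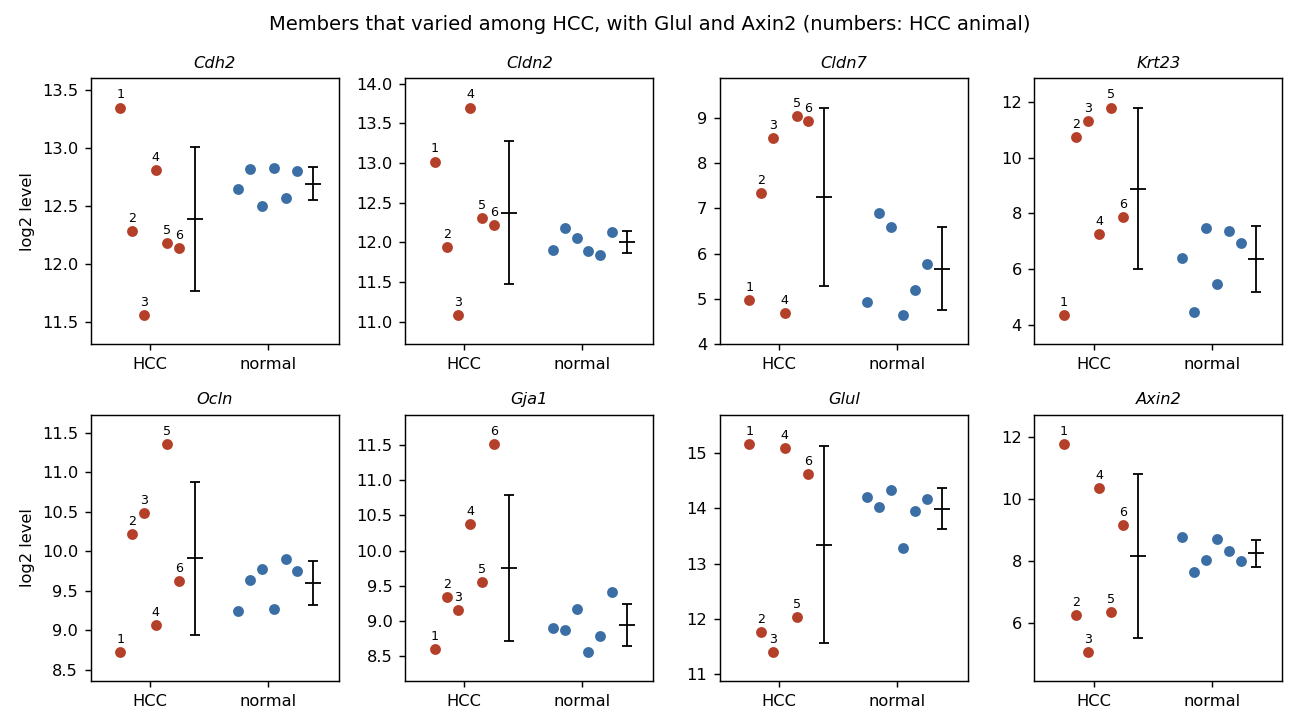
Levels of 6 junction genes that varied among the HCC, with Glul and Axin2, as log2(intensity + 16), for each HCC (red, left, numbered by animal) and each normal liver (blue, right), with the mean and SD as a bar. Cdh2 and Cldn2 have their highest values in HCC 1 and HCC 4, where Cldn7 and Ocln have their lowest, and Gja1 is highest in HCC 6.

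Other genes of the same structures were read from wider lists. Over all genes, 13.7% were called in either direction. The share was 35.7% of other adherens genes, 10.7% of other tight junction genes, 25% of other desmosome genes and 37.5% of other hemidesmosome genes. It was 12.5% of other keratins, 23.1% of other epithelial regulators and surface genes, and 30.8% of E-cadherin repressors and mesenchymal genes. Whether these shares differ from that of all genes was not tested. Of 14 other adherens genes, 4 were called higher and 1 lower. Cdh17, the cadherin of liver and intestine, rose by 3.28 ± 0.83 (SE, limma adjusted p = 0.0207), from a dim probe set with means of 7.79 ± 2.27 in the HCC group and 4.51 ± 0.19 in the normal group (SD, n = 6 each), above all normal livers in 5 HCC. This call did not hold without HCC 1 and HCC 4 (2.85, limma adjusted p = 0.0631). Ajuba, an adaptor at cadherin complexes, rose by 1.49 ± 0.29 (SE, limma adjusted p = 0.0052) with no overlap. Plekha7, which ties these complexes to microtubules, rose by 1.16 ± 0.32 (SE, limma adjusted p = 0.0302), a call that did not hold without normal 1, 2, 3, 5 or 6 or without HCC 4, 5 or 6 (limma adjusted p up to 0.0636), nor without both HCC 1 and HCC 4 (0.88, limma adjusted p = 0.0899). Nectin2 and Nectin1, named after their values were seen, are adhesion molecules of the immunoglobulin family, and differed by 0.48 and -0.71 (limma adjusted p = 0.0197 and 0.0055).

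Of 28 other tight junction genes measured, 2 were called higher and 1 lower, a share of 10.7% against 13.7% of all genes. Mpdz, a scaffold with many binding domains, was lower, with a difference of -1.57 ± 0.28 (SE, limma adjusted p = 0.0031), and lay below all normal livers in every HCC. The virus and adhesion receptor Cxadr rose by 0.99 ± 0.19 and the scaffold Magi3 by 0.82 ± 0.16 (SE, limma adjusted p = 0.0053 and 0.0064), each with no overlap. None of 6 other gap junction genes was called by limma, and 1 had an unadjusted p under 0.05. This was the channel protein Panx1, at 1.31 ± 0.42 (SE, limma adjusted p = 0.0563), and was called without normal 3 (1.51, limma adjusted p = 0.0393) or without HCC 2 (1.49, limma adjusted p = 0.0361). Of 8 other desmosome genes, Ppl, periplakin, which binds intermediate filaments, rose by 0.97 ± 0.19 (SE, limma adjusted p = 0.0051). The armadillo protein Pkp4 was lower by limma (-0.62 ± 0.19, SE, adjusted p = 0.0452), a call that held without normal 6, HCC 2 or HCC 5 and not without any other single liver (adjusted p up to 0.0927), nor without both HCC 1 and HCC 4 (-0.47, adjusted p = 0.150).

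Of 8 other hemidesmosome genes, 3 were called higher and none lower by limma (5 and 1 at an unadjusted p under 0.05). Itga6, the integrin chain that pairs with the product of Itgb4, rose by 2.32 ± 0.53 (SE, limma adjusted p = 0.0129), at 9.36, 10.09 and 11.18 in HCC, against 5.47, 7.998 and 9.001 in normal liver. Cd151, a tetraspanin bound to that integrin, rose by 0.96 ± 0.17 and Plec, plectin, by 0.86 ± 0.17 (SE, limma adjusted p = 0.0032 and 0.0063), and none of the 3 overlapped between groups. Plec was not called with the mean of all its probe sets (0.57, limma adjusted p = 0.113). Of 8 other keratins, Krt10 of the epidermis was the one called, lower by limma (-0.53 ± 0.13, SE, adjusted p = 0.0155).

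Of 13 other epithelial regulators and surface genes, 2 were called higher and 1 lower. Grhl1, a relative of Grhl2, rose by 1.89 ± 0.38 (SE, limma adjusted p = 0.0062), with levels of 6.98, 8.21 and 8.53 in HCC, against 4.70, 6.22 and 6.91 in normal liver. Its sign was opposite to that of Grhl2. Spint2, an inhibitor of serine proteases, rose by 0.63 ± 0.17 (SE, limma adjusted p = 0.0319), and not past the test without normal 1, 3 or 4 or without HCC 1, 4 or 5 (adjusted p up to 0.0705), nor without both HCC 1 and HCC 4 (0.45, adjusted p = 0.119). The splicing factor Esrp2 was lower by limma (-0.44 ± 0.14, SE, adjusted p = 0.0496), a call that held without HCC 2 and not without any of the other 11 livers (adjusted p up to 0.104), nor without both HCC 1 and HCC 4 (-0.46, adjusted p = 0.0951).

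Among 13 E-cadherin repressors and mesenchymal genes, 4 were called higher and none lower by limma (4 and 0 at an unadjusted p under 0.05). The repressors Snai1, Snai2, Zeb1, Zeb2 and Twist1, named outside the rule for the wider lists, had differences of -0.08, -0.72, -0.03, -0.49 and 0.14. None of the 5 was called by limma, nor was Twist2, while Tcf4 of the same list was called higher. S100a4, a calcium-binding protein of motile cells, rose by 2.09 ± 0.54 (SE, limma adjusted p = 0.0233), from a dim probe set. Vim, vimentin, rose by 1.79 ± 0.53 (SE, limma adjusted p = 0.0416), at 10.51, 11.87 and 14.52 in HCC, against 10.07, 10.27 and 11.35 in normal liver. This call held without normal 6, HCC 1, HCC 2 or HCC 6 and not without any other single liver (adjusted p up to 0.0821). Nor did the Vim call hold with a pseudocount of 1, the mean of all probe sets or a trended and robust variance (limma adjusted p up to 0.0523). The part of the stellate and fibroblast markers in the Vim values was not tested. Tcf4, a helix-loop-helix factor listed beside the repressors, rose by 0.84 ± 0.25 (SE, limma adjusted p = 0.0403). The Tcf4 call held without normal 3, HCC 2 or HCC 3 and not without any other single liver (limma adjusted p up to 0.087). Nor did it hold without both HCC 1 and HCC 4 (0.69, limma adjusted p = 0.119). Fn1, fibronectin, named after its values were seen, differed by 0.46 (limma adjusted p = 0.017). Cdh1 and Vim were thus both called higher in the same comparison, but the call held in every setting for Cdh1 only.

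Markers of the cell types in the tissue were set beside these values. The share called was 10% of hepatocyte, 22.2% of endothelial and 30% of stellate and fibroblast markers, against 13.7% of all genes. It was 14.3% of macrophage and 33.3% of gut epithelium markers. Summed intensities are linear, so that the brightest probe sets of a list make up most of its sum. Of 10 hepatocyte markers, Tat was called lower and the others were not called, and their summed intensity was 341741 to 363523 in HCC and 399954 to 417338 in normal liver. The sum was thus lower in every HCC than in every normal liver, and its part in the results was not tested. Of 7 bile duct markers measured of 10 listed (Krt7, Krt19, Epcam, Sox9, Cftr, Muc1 and Aqp1), none was called by limma. Their sum was 916.5 to 2544 in HCC and 1004 to 2955 in normal liver, with overlapping ranges. It came mostly from Aqp1, with mean levels of 10.13 in HCC and 10.56 in normal liver, while Krt7, Cftr and Muc1 had dim probe sets. Bile duct cells also carry Cdh1, and the part of these markers in its values was not tested. Of 6 gut epithelium markers, Vil1 (3.44, limma adjusted p = 0.0078) and Cdh17 were called higher, both from dim probe sets. The sum of the 6 was 2819 to 20508 in HCC and 6219 to 10757 in normal liver. It came mostly from Fabp2, which was not called (-0.53, limma adjusted p = 0.439). The part of these markers in Krt20 and Cldn7 was not tested. Of 9 endothelial markers, Stab2 and Clec4g were called lower, with a sum of 2005 to 6362 in HCC and 4472 to 7938 in normal liver. Of 7 macrophage markers, Clec4f was called lower, with a sum of 3895 to 14817 in HCC and 6687 to 15970 in normal liver. None of 8 lymphocyte, 6 mesothelial and 3 pancreatic acinar markers was called by limma, with sums of 1191 to 3670, 281.6 to 736.8 and 2685 to 9377 in HCC and of 900.0 to 1675, 397.2 to 570.6 and 1110 to 5016 in normal liver. No marker of these lists had an intensity of 0 on any array. At an unadjusted p under 0.05, 0 hepatocyte markers were higher and 4 lower, 3 endothelial markers higher and 2 lower, 3 stellate and fibroblast markers higher and 2 lower, and 1 macrophage marker higher and 2 lower. Likewise 2 lymphocyte and 2 gut epithelium markers were higher and 0 lower, and 0 of the bile duct, mesothelial and acinar markers had p under 0.05.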

How the data were processed

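RNA of 6 HCC and 6 normal livers was hybridised to single-colour Affymetrix arrays, with 1 array for each animal. The labels' protocols state that total RNA was amplified by one-cycle cDNA synthesis and labelled with biotin. The deposited values were linear intensity signals with a trimmed mean of 500.0 on every array, with 14.2% to 18.1% of probe sets under 16. The sources used here do not name the method that summarised probes. Of 45101 probe sets, 64 controls were left out, 34945 named 1 gene, 932 several and 9160 none in the platform annotation. The pseudocount was 16 and arrays were quantile normalized. The comparison of HCC with normal liver used limma 3.58.1 (lmFit and eBayes, R 4.3.3) over 18193 genes, each as its brightest probe set, at a Benjamini-Hochberg threshold of 0.05.

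The named genes were all 38 members, Glul and Axin2. From each wider list, up to 3 called genes with the largest difference were named, or the gene with the smallest p where none was called. Nectin1, Nectin2, Fn1, Snai1, Snai2, Zeb1, Zeb2, Twist1, Twist2 and the cell type markers were named outside this rule. The members and lists were chosen with earlier results of these data known, and leaving out HCC 1 and HCC 4 together was added after seeing the data. Simulated data of 18193 genes held 17993 unchanged genes and 50 genes at each log2 change. In these data limma called 12% at a change of 0.5, 52% at 1, 96% at 2 and 98% at 4, besides 3 of the 17993. In the measured data 13.7% of all genes were called. Whether the shares from the simulated data hold for the measured data was not tested. Deviations of arrays with the same number correlated between -0.0147 and 0.0778, so no pairing by number was assumed. Tables came from Python 3.11.15 (pandas 2.3.3, numpy 2.4.6) and figures from matplotlib 3.10.9.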

Additional observations from a re-analysis of the deposited data

Results flagged for a closer look

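The 59 genes named by the rule above gave 118 groups of 6 livers. In 10 of these groups the highest or lowest liver lay far from the other 5 by Dixon's test. Chance alone marks about 1 group in 20. Among the junction genes, normal 3 was highest for Ctnna1 at 12.77, with the other normal livers from 12.51 to 12.61. Normal 1 was highest for Jup at 9.72, with the others from 9.33 to 9.47. Normal 3 was lowest for Cldn3 at 12.01, with the others from 12.21 to 12.31, and HCC 4 was lowest for Grhl2 at 6.28, with the other HCC from 6.89 to 7.22. Among the other genes, normal 4 was highest for Plekha7 at 7.68 (the others 6.69 to 6.95) and for Esrp2 at 11.05 (the others 10.68 to 10.78), and lowest for Glul at 13.29 (the others 13.95 to 14.33). Normal 1 was highest for Ppl at 9.36 (the others 8.38 to 8.67). Normal 5 was lowest for Itga6 at 5.47 (the others 7.85 to 9.001), and normal 6 was highest for Vim at 11.35 (the others 10.07 to 10.53).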

How the results depend on the processing

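Of the 14 called members, 10 kept their call with each array left out in turn and 8 in the 11 other settings, and 7 (Cdh1, Ctnnb1, Cldn14, Tjp1, Krt8, Krt18 and Lad1) kept it in all of these. The 11 settings did not include the stricter threshold, and none of the 14 changed sign. The members called higher, 9 in the report, were 7 to 12 with an array left out, 8 with the replicate number as a block, 13 without HCC 1 and HCC 4, and 4 at a threshold of 0.01. The members called lower, 5 in the report, were 3 to 5 with an array left out, 3 with the mean of all probe sets, 3 with the block, 3 without HCC 1 and HCC 4, and 2 at the threshold of 0.01. Over all genes, 1179 higher became 515 at the threshold of 0.01 and 895 to 1222 with an array left out, and 1318 lower became 461 at that threshold, 839 with the block and 919 to 1443 with an array left out. The replicate numbers mark no known pairs, and under the block Cldn12, Marveld2 and Pkp3 had adjusted p of 0.081, 0.06 and 0.0874. The filter on dim genes had no value for Cldn4, Cldn6, Cldn7, Pkp3, Itgb4, Krt20 and Esrp1. Among the other named genes, Esrp2 was not called with a pseudocount of 1, the deposited scaling, array weights, the block or the Y-linked covariate. Pkp4 was not called with a pseudocount of 1, array weights, the block or the Y-linked covariate. Spint2 and Tcf4 lost their calls with median centring or the block, and Plekha7 and Krt10 with the block. The cause of these changes was not tested.

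The 6 genes whose values changed sign, none of them called in the report, were Cgn, Dsp, Dsg2, Pard3, Cldn2 and Axin2. Cgn became 0.11 with the deposited scaling, 0.043 with median centring, 0.50 with the mean of probe sets, 0.013 with array weights and 0.021 without HCC 1 and HCC 4, and ran from -0.13 to 0.071 with an array left out. Dsp became -0.017 with the deposited scaling, -0.085 with median centring and -0.080 without HCC 1 and HCC 4, and ran from -0.028 to 0.16. Dsg2 became 0.15 with the mean of probe sets and 0.026 without HCC 1 and HCC 4, and ran from -0.17 to 0.038. Pard3 became 0.058 with the mean of probe sets, Cldn2 -0.12 without HCC 1 and HCC 4. Axin2 became 0.16 with a pseudocount of 64, 0.027 with the deposited scaling and 0.42 with the mean of probe sets, and ran from -0.81 to 0.53 with an array left out and from -1.54 to 0.42 in the other settings.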
